A study of Mus musculus with 9 samples.

Results

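Heat shock proteins and their co-chaperones were followed in OB-6 cells, a mouse osteoblastic line from bone marrow, over the first hour of parathyroid hormone (PTH). Members were chosen by gene symbol alone, as probe sets whose only symbol begins with Dnaj, with Bag or Cct and a digit, or with Hsp and a digit or a letter from a to h. These were 88 of the 12488 probe sets on the array and stood for 60 genes. The 9 arrays of total RNA were 3 at 0 min, the basal level, 3 after 30 min and 3 after 60 min of PTH, named replicates a, b and c. No group carries a further agent or allele in the labels, and the PTH dose is not given in the sources used here. Cells kept for 30 or 60 min without hormone were not analysed here, so time in the experiment and PTH cannot be told apart. The labels do not say whether replicates were separate cultures, and p-values measure the spread between arrays only.

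Heat shock proteins are molecular chaperones that bind unfolded stretches of other proteins. Hsp70 works in a cycle of ATP binding and hydrolysis. Dnaj proteins (also called Hsp40) deliver substrates to Hsp70 and, through their J domain, make it hydrolyse ATP, and Bag proteins and Hspbp1 help it to let nucleotide go. The Dnaja class keeps the full layout of the bacterial DnaJ protein with its zinc-binding region, the Dnajb class lacks the zinc-binding region, and the Dnajc class shares little with the others beyond the J domain and does many unrelated jobs. Hsp90 finishes the folding of kinases and receptors, and the ring-shaped chaperonins enclose proteins as they fold. In osteoblasts, which secrete large amounts of collagen, the chaperones of the endoplasmic reticulum (ER) handle the secreted chains. Heat shock factors induce many of the cytosolic members under stress, and a separate response to unfolded protein induces those of the ER.

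Of the 88 probe sets 74 were bright enough to test, from 56 genes, with at least 3 arrays above an intensity of 44.69, and 67 of them lay above it on all 9 arrays. The 14 dim ones included the only probe sets of Hspb1, a small heat shock protein, of Dnajb5, of the testis co-chaperone Dnajb8 and of Dnajc11. Fold changes below are differences of log2(intensity + 11.8), which understates changes at low intensity. To be called, a probe set needed a limma adjusted p under 0.05 over all 7884 tested probe sets. Levels are not set against each other between probe sets, which bind their RNAs with different strength.

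The immediate-early genes Fos, Egr1, Nr4a1, Junb and Dusp1 were higher at 30 min, with log2 fold changes from 1.56 to 4.05. The osteoblastic genes Col1a1, Col1a2 and Sparc were bright, at mean intensities of 3809, 5386 and 3389 at 0 min, whereas the PTH receptor gene Pth1r was dim at 15.7. Of the osteoblast list 5 of 6 genes on the array were bright enough to test, and its summed intensity was 12424 to 13848 at 0 min, 13377 to 13681 at 30 min and 14481 to 17115 at 60 min. Of these Col1a1 was called higher at 60 min (0.56, limma adjusted p = 0.0499), and Ibsp, at mean intensities of 117, 110 and 66.6, stood at -0.80 (limma adjusted p = 0.0576). Of the list for haematopoietic cells and osteoclasts 6 of 8 were tested and 0 were called, with sums of 1786 to 2045, 1960 to 2090 and 1854 to 2283 at the 3 times. At 0 min Cd14, Ctsk and Cd68 of that list had mean intensities of 976, 599 and 139, and the leukocyte marker Ptprc 5.87. Adipocyte genes summed to 156 to 186 over the 9 arrays, and skeletal muscle genes to 211 to 318, 346 to 383 and 293 to 420, with Ckm called higher at 60 min (0.86, limma adjusted p = 0.0197). Of 5 listed chondrocyte genes 3 were on the array, and these and the 5 endothelial genes were all too dim to test. The endothelial sum was 38.4 to 52.1 at 0 min, 45.7 to 80.7 at 30 min and 86.8 to 107 at 60 min. The part of other cell types in the results below was not tested. In a bulk RNA sample, fewer cells that express a gene and less of its RNA per cell cannot be told apart.

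After 60 min of PTH 11 of the 74 tested probe sets were called by limma, 2 higher and 9 lower, from 10 genes. These 11 were 14.9% of the members, near the 13.1% called either way over the whole array. Over the whole array 4.35% of tested probe sets were called higher and 8.73% lower, which is 343 and 688. Under 75th percentile scaling these were 499 and 652, and under cyclic loess 227 and 622. The 2 that rose were Dnajb1, the main stress-inducible Hsp40 of the cytosol, and Hspb8, a small heat shock protein that works with Bag3. The 9 that fell were Hsp90aa1, the inducible cytosolic Hsp90, Hspa4, an Hsp110 that exchanges nucleotide on Hsp70, and 7 probe sets of the 6 Dnajc genes Dnajc1, Dnajc2, Dnajc3, Dnajc10, Dnajc13 and Dnajc21. The median log2 fold change of the 74 was -0.08, against 0.03 over all tested probe sets, and it was 0.00 after quantile normalization. Arrays at 60 min lay wholly above those at 0 min for 12 member probe sets and wholly below for 22, which over the whole array was so for 20% and 20.7%.

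**Figure D1:**
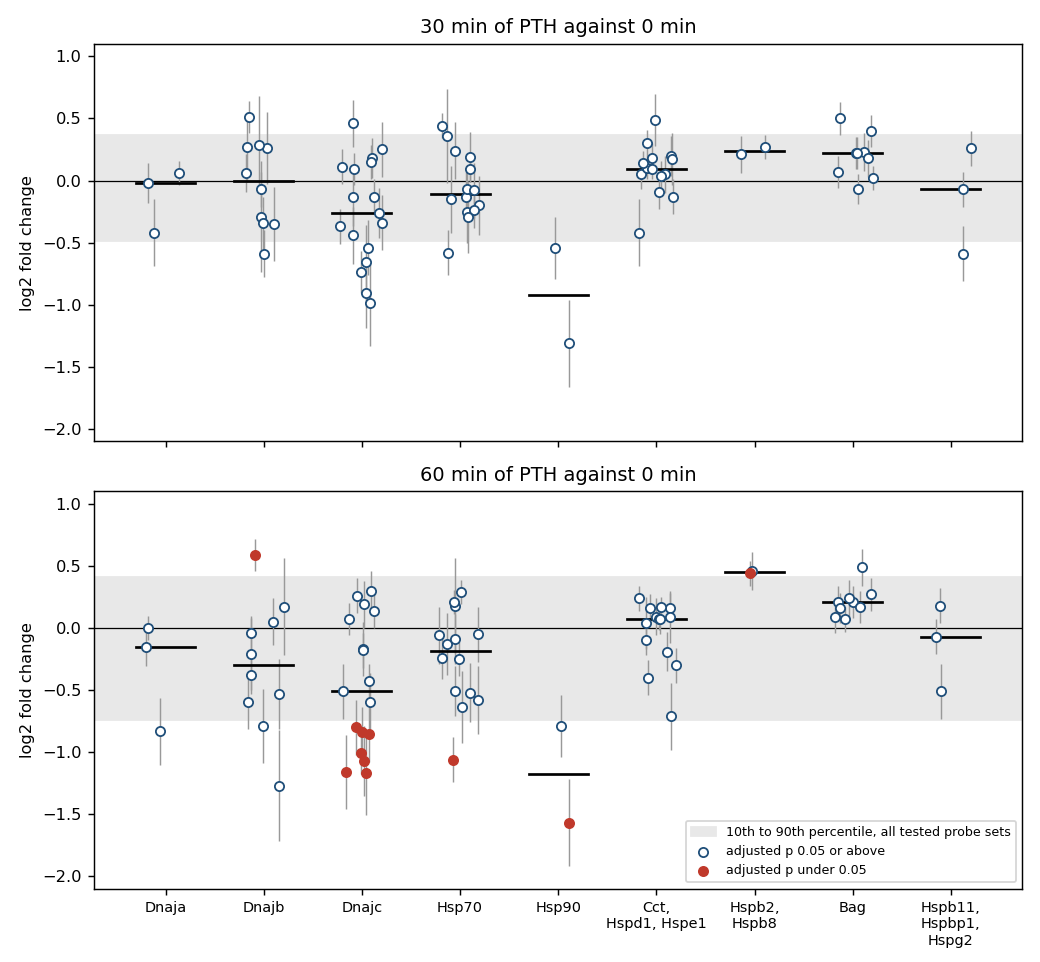
Log2 fold change (y axis) of each of the 74 tested probe sets by class (x axis), at 30 min (top) and 60 min (bottom) of PTH against 0 min, from 3 arrays a time. Points are probe sets with their standard error, black lines class medians, filled points those with a limma adjusted p under 0.05, and the grey band the 10th to 90th percentile of all tested probe sets. Filled points are seen only at 60 min, 7 of the 11 of them low in the Dnajc class.

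The 3 Dnaj classes differed in how many members were called at 60 min. Of 3 tested Dnaja probe sets 0 were called, and of 10 Dnajb probe sets 1 was called higher and 0 lower. Of 17 Dnajc probe sets 0 were called higher and 7 lower, or 41.2%. The array-wide shares were 4.35% higher and 8.73% lower. The 7 Dnajc probe sets came from 6 genes, with 2 from Dnajc2. Those 7 include Dnajc21, which passed the filter only through its arrays of 0 and 30 min. With a filter on all 9 arrays 6 of 15 Dnajc probe sets were called lower, where 14.3% of the array was called either way. The median log2 fold change was -0.15 for Dnaja, -0.29 for Dnajb and -0.51 for Dnajc, and the ranges were -0.83 to 0.00, -1.27 to 0.59 and -1.17 to 0.30. At 30 min the medians were -0.02, -0.01 and -0.26. The 57 tested probe sets outside Dnajc had a median of -0.04 at 60 min, against 0.03 over the array. Under quantile and 75th percentile scaling it was 0.03 and 0.02, while the array median moved to 0.08 and 0.10. The medians of all 3 Dnaj classes stayed below 0 under quantile, cyclic loess and 75th percentile scaling, at -0.13 to -0.08, -0.24 to -0.19 and -0.44 to -0.39. The difference between the classes was not tested, and members of a class are not replicates.

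The spread between arrays of the same time was large in the Dnajc class. Replicate b of 60 min was the least like the others, its correlations with them having a median of 0.938, where the remaining 8 arrays had 0.954 to 0.967. The median deviation of Dnajc probe sets from their 0 min mean was -0.28, -0.89 and -0.38 on replicates a, b and c at 60 min, and -0.09, -0.34 and -0.18 at 30 min. The 57 other member probe sets had medians between -0.04 and 0.07 on those 6 arrays, and all tested probe sets between 0.01 and 0.08. These 57 pool classes that went opposite ways. On 60 min replicate b the median was -1.73 for Hsp90, -0.56 for Hsp70, -0.51 for Dnaja and -0.27 for Dnajb. It was -0.02 for Hspg2, Hspb11 and Hspbp1 together, 0.05 for chaperonins, 0.15 for Bag and 0.56 for small heat shock proteins. Low values on that array were thus not particular to Dnajc. Of the 9 member probe sets called lower, 8 were lowest at 60 min on replicate b and 9 were lowest at 30 min on replicate b. The array-wide falls had the same order, since 88.4% of the 688 probe sets called lower at 60 min were lowest on that 60 min array and 77.5% on that 30 min array. What sets these arrays apart was not tested.

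Without 60 min replicate b, 5 member probe sets were called at 60 min, Dnajb1 and Hspb8 higher and Dnajc1, Dnajc13 and Hspa4 lower, where 1.97% of the array was higher and 4.73% lower. The Dnajc class then had 2 of 17 called lower and a median of -0.33, with Dnajb at -0.24 and Dnaja at 0.00. With 0 min replicate a, b or c left out, limma called 1, 0 and 2 members, and 0.977%, 1.36% and 3.29% of the array in place of 13.1%. Leaving out 30 min replicate c gave 6 member calls, 60 min replicate a 21 and 60 min replicate c 7, beside 8.78%, 20.1% and 8.19% of the array. The number of calls thus went up and down over the whole array with these arrays, not in the members alone. Of the 74 member values at 60 min, 8 turned their sign without 60 min replicate b, 0 of them called, and 23 kept it but were over 1.5 times smaller.

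**Figure D2:**
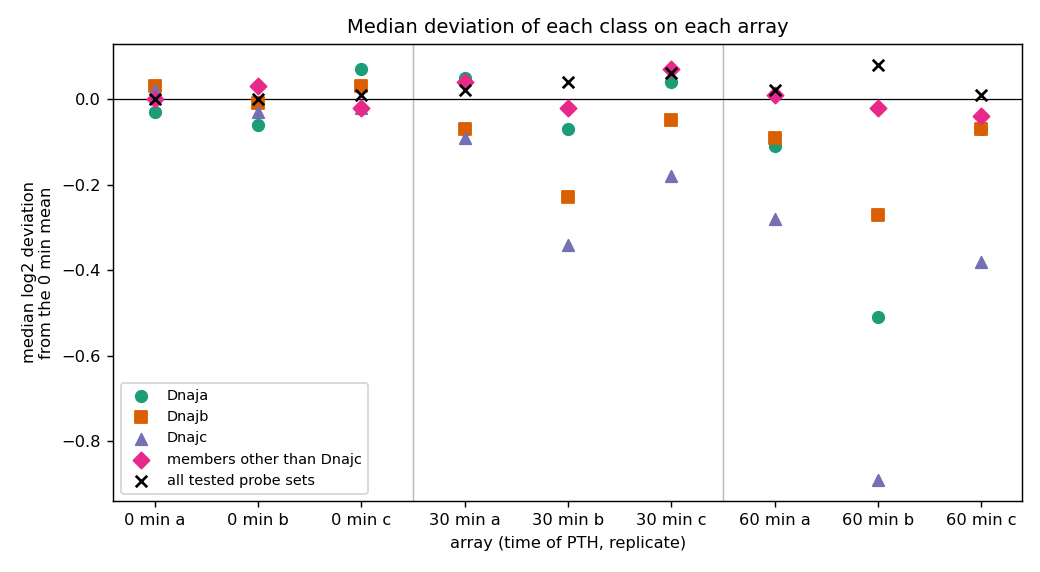
Median deviation from the 0 min mean on the log2 scale (y axis) on each of the 9 arrays (x axis) for the tested probe sets of Dnaja (3), Dnajb (10), Dnajc (17), the 57 members other than Dnajc and all 7884 tested probe sets. Of the sets drawn, the Dnajc class lies lowest on 60 min replicate b, at -0.89, with Dnaja at -0.51 and Dnajb at -0.27. All tested probe sets stay between 0.00 and 0.08.

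Dnajc13, which takes part in sorting of membrane proteins at endosomes, fell at 60 min. Its intensity was 205, 234 and 214 on replicates a, b and c at 0 min, 148, 108 and 122 at 30 min, and 127, 89.7 and 92.4 at 60 min. The 0 min arrays lay above all 6 later ones. The fall at 60 min was 2.01-fold, with a log2 fold change of -1.01 (standard error 0.17, limma adjusted p = 0.00912), and -0.93 without 60 min replicate b. The call was lost in 1 of the 9 fits that left out an array, the one without 0 min replicate b (limma adjusted p = 0.053). At 30 min the log2 fold change was -0.74 with a limma adjusted p of 0.0696.

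Dnajc2, which sits on the ribosome and meets new chains together with Hspa14, fell on both of its probe sets. The brighter read 393, 353 and 244 at 0 min, 251, 89.3 and 169 at 30 min, and 202, 106 and 120 at 60 min. The other read 257, 248 and 254, then 217, 76.3 and 126, then 137, 93.5 and 116. On each of them the 60 min arrays lay below the 0 min arrays, and at 30 min replicate a stood well above b and c. The log2 fold changes at 60 min were -1.17 (standard error 0.34, limma adjusted p = 0.0446) and -1.07 (standard error 0.28, limma adjusted p = 0.0345). Both calls were lost without any of the 0 min arrays, 30 min replicate c, or 60 min replicates b or c, and without 60 min replicate b the limma adjusted p was 0.124 and 0.0949. Hspa14, its partner, stood at -0.13 (standard error 0.25, limma adjusted p = 0.766).

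Dnajc21, a ribosome assembly factor of the 60S subunit, was dim and fell at 60 min. It read 71.6, 63.6 and 65.3 at 0 min, 60.7, 46 and 56.1 at 30 min, and 29.8, 30.5 and 36.7 at 60 min. The arrays of the 3 times did not overlap, and the 60 min arrays lay under the intensity of 44.69 used as the filter. Dnajc21 thus entered the test only through its 6 arrays of 0 and 30 min, which favours a fall, and its call is no support for one. With a filter on all 9 arrays it was not tested, and 6 of 15 Dnajc probe sets were called lower, beside 14.3% of the array called either way. The log2 fold change was -0.26 at 30 min and -0.84 at 60 min (standard error 0.20, limma adjusted p = 0.025). The call was lost without any of the 0 min arrays and without 60 min replicate b, where the value was -0.81 (limma adjusted p = 0.0543). The difference between 60 and 30 min, -0.58, had a limma adjusted p of 0.529.

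The remaining called Dnajc genes, Dnajc1, Dnajc3 and Dnajc10, encode J proteins of the ER. Dnajc3 (also P58IPK) protects new chains in the ER lumen, and its brightest probe set read 320, 307 and 331 at 0 min, 300, 133 and 194 at 30 min and 218, 101 and 112 at 60 min. Dnajc10, which carries thioredoxin-like domains and reduces disulphides of proteins to be degraded, read 1306, 1351 and 1249, then 1188, 837 and 883, then 991, 480 and 765. Dnajc1, a membrane protein that binds ribosomes, read 239, 226 and 199, then 147, 144 and 153, then 161, 77.8 and 143. In all of these the 0 min arrays lay above all later arrays, and replicate a was the highest at 60 min. The log2 fold changes at 60 min were -1.16 (standard error 0.30) for Dnajc3, -0.85 (standard error 0.23) for Dnajc10 and -0.80 (standard error 0.22) for Dnajc1, and the limma adjusted p was 0.0313, 0.0342 and 0.0378. When 60 min replicate b was left out, they were -0.97, -0.57 and -0.51, and the limma adjusted p was 0.0877, 0.058 and 0.0492. All of these calls were also lost without any of the 0 min arrays, 30 min replicate c or 60 min replicate c, with limma adjusted p of up to 0.131. They and both calls of Dnajc2 ended without the filter or without a variance trend, and cyclic loess ended those of Dnajc1 (limma adjusted p = 0.0535) and of the brighter Dnajc2 probe set (limma adjusted p = 0.0511).

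The other ER members were not called and lay on the same side of 0 at 60 min. Hspa5 (BiP), the Hsp70 of the ER, read 3098, 3038 and 2542 at 0 min, 2671, 2344 and 2518 at 30 min, and 2755, 1246 and 2357 at 60 min. Its times overlapped, and its log2 fold change at 60 min was -0.52 (95% interval -1.04 to 0.00, limma adjusted p = 0.153), or -0.18 without 60 min replicate b. Hsp90b1 (Grp94), the Hsp90 of the ER, read 2708, 3068 and 2856, then 2714, 1520 and 1862, then 2193, 1111 and 1856. It stood at -0.79 (95% interval -1.34 to -0.24, limma adjusted p = 0.0581), and its 60 min arrays lay below the 0 min ones. It was called after quantile normalization (-0.88, limma adjusted p = 0.0456) and after cyclic loess (-0.95, limma adjusted p = 0.0495), and stood at -0.51 (limma adjusted p = 0.144) without 60 min replicate b. Both probe sets of Dnajb9 (ERdj4), at -0.53 and -0.79, and Dnajb11 (ERdj3), at -0.04, were not called either, and without 60 min replicate b stood at -0.18, -0.38 and 0.08. In all, 10 tested probe sets from these 7 ER genes had a median of -0.69 at 60 min, 3 of them called lower and 0 of them above 0. Dnajc3 had 3 of these probe sets and Dnajb9 2, so they are not separate genes. Over the whole array 8.73% were called lower, and 3672 of 7884 stood below 0. Without 60 min replicate b the ER median was -0.40, with 1 called lower and 1 above 0, where 4.73% of the array was called lower. The ER grouping was made after the values were seen and has no test.

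The ER response to unfolded protein acts through the ER stress element (ERSE), searched here on both strands as CCAAT and CCACG separated by 9 bases of any kind. In RefSeq's table of 32851 mouse promoters (GRCm38.p6, from 250 bases before to 50 after each gene start) 0.119% held this motif. Of the 60 member genes 52 had an entry, with 66 promoters. The motif stood in 4.55% of these promoters, from 3 genes, Hspa5, Hsp90b1 and Dnajc3. The matches are shown because these genes had log2 fold changes of -0.52, -0.79 and -1.16 at 60 min, of which only that of Dnajc3 was called. A match is a description of the letters and not a site of binding. Capitals mark the motif, and each run is written 5′ to 3′ on the strand of the gene. The second of the Hsp90b1 runs holds the motif in reverse.

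Hspa5, chr2:34771995-34772073, plus strand: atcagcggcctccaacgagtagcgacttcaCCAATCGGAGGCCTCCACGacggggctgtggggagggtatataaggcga
Hsp90b1, chr10:86705608-86705686, minus strand: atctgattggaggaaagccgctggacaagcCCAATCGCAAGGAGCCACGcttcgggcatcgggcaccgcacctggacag
Hsp90b1, chr10:86705503-86705581, minus strand: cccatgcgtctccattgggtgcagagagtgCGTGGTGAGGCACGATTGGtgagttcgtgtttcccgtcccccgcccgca
Dnajc3, chr14:118937797-118937875, plus strand: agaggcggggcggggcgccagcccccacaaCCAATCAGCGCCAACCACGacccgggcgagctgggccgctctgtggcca

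The motif began 65 bases before the gene start in Hspa5, 212 and 107 before it in Hsp90b1 and 105 before it in Dnajc3. These 3 genes had a median log2 fold change of -0.79 at 60 min and -0.54 at 30 min, against 0.03 and 0.05 over all tested probe sets. Without 60 min replicate b, Hspa5, Hsp90b1 and Dnajc3 stood at -0.18, -0.51 and -0.97 at 60 min. Whether the motif has a part in these values was not tested.

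The Dnajc members without a call at 60 min went in both directions. Dnajc7, a co-chaperone of Hsp70 and Hsp90, stood at -0.43 (limma adjusted p = 0.0606), from 559, 501 and 474 at 0 min to 417, 330 and 390 at 60 min, with no overlap. Dnajc4, the highest of the class, stood at 0.30 (standard error 0.16, limma adjusted p = 0.238), from 111, 129 and 123 to 162, 160 and 133. Dnajc15, of the mitochondrial inner membrane, stood at 0.26, Dnajc17 at 0.19, and Dnajc9, a histone chaperone, at -0.17. Dnajc5, the cysteine string protein of secretory vesicles, had a 95% interval of -0.21 to 0.35 around 0.07. The probe sets of Dnajc8 stood at -0.18 and 0.14.

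Among the Dnajb class Dnajb1 was the only member called. It read 234, 199 and 239 at 0 min, 318, 374 and 281 at 30 min, and 348, 344 and 331 at 60 min. All 6 arrays with PTH lay above the 0 min arrays, and the 60 min arrays lay close together. The rise at 60 min was 1.5-fold, with a log2 fold change of 0.59 (standard error 0.13, limma adjusted p = 0.0223). At 30 min the log2 fold change was 0.51 with a limma adjusted p of 0.0991, and 0.0441 when 60 min replicate b was left out of the common fit. The call at 60 min was lost without any of the 0 min arrays (limma adjusted p up to 0.0944), with log2 fold changes of 0.51 to 0.63 over the fits.

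The other Dnajb members were not called. Of the 10 tested probe sets of the class 7 stood below 0 at 60 min. Besides Dnajb1, only Dnajb2 (0.05, standard error 0.19) and Dnajb3 (0.17, standard error 0.39) stood above it. Dnajb6, which keeps aggregation-prone proteins soluble, stood at -0.60 (limma adjusted p = 0.085) on its brighter probe set, from 1614, 1569 and 1532 at 0 min to 1203, 674 and 1360 at 60 min, and at -0.38 on the other. Without 60 min replicate b these were -0.29 and -0.44. On both of these the 60 min arrays lay below the 0 min arrays. Dnajb4, the lowest of the class, read 65.2, 101 and 91.7 at 0 min and 51.5, 5.1 and 48 at 60 min, and its log2 fold change of -1.27 (standard error 0.45, limma adjusted p = 0.0813) was -0.65 without 60 min replicate b. Dnajb2, a neuronal co-chaperone, read 62.6, 67.5 and 53.4, then 38.9, 34.7 and 35.9, then 60.8, 58.1 and 72.6. It was thus low on all 3 arrays at 30 min, with a log2 fold change of -0.59 (limma adjusted p = 0.155). At 60 min its arrays overlapped those of 0 min. The 30 min arrays of Dnajb2 all lay under the intensity used as the filter. Dnajb2 thus entered the test only through its 6 arrays of 0 and 60 min, which favours a low value at 30 min. Its value at 30 min is therefore no support for a dip. Dnajb13, a sperm-tail gene, and Dnajb3 stood at -0.21 and 0.17.

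The Dnaja class had 3 genes with 1 probe set each. Dnaja1, the chief farnesylated partner of cytosolic Hsp70, read 734, 772 and 799 at 0 min, 797, 433 and 539 at 30 min, and 568, 268 and 507 at 60 min. The 60 min arrays lay below the 0 min ones, and the log2 fold change was -0.83 (standard error 0.27, limma adjusted p = 0.0645), or -0.51 without 60 min replicate b. Dnaja2 stood at -0.15 (95% interval -0.51 to 0.21). Dnaja3, the mitochondrial member, read 529, 518 and 571 at 0 min and 567, 535 and 513 at 60 min, with an interval of -0.23 to 0.22.

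**Figure D3:**
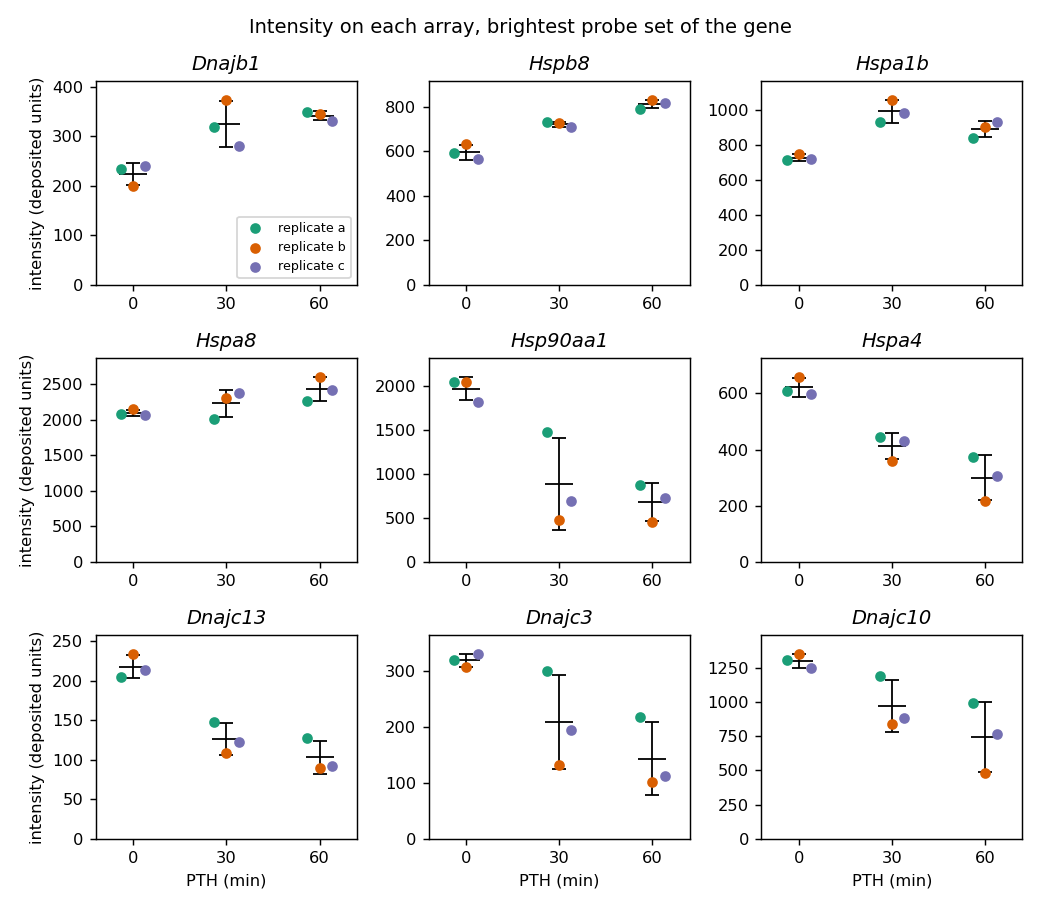
Deposited intensity (y axis, linear from 0) against minutes of PTH (x axis) for 9 member genes, each by its brightest probe set. Coloured points are the arrays of replicates a, b and c, and black bars the mean and SD of 3 arrays. Dnajb1 and Hspb8 lie higher at 60 min on every array, while Hsp90aa1, Hspa4, Dnajc13, Dnajc3 and Dnajc10 lie lower, with 60 min replicate b the lowest in each.

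Among the Hsp90 genes only Hsp90aa1 and Hsp90b1 were members, and the constitutive Hsp90ab1 and the mitochondrial Trap1 were not analysed here. Hsp90aa1 read 2052, 2051 and 1817 at 0 min, 1474, 478 and 695 at 30 min, and 873, 448 and 722 at 60 min. All arrays with PTH lay below the 0 min arrays, and those of 30 min were far apart, with a mean of 882 ± 524 (SD, n = 3). The fall at 60 min was 2.96-fold, with a log2 fold change of -1.57 (standard error 0.35, limma adjusted p = 0.0209), and -1.30 (limma adjusted p = 0.0542) without 60 min replicate b. The call was also lost without any of the 0 min arrays, with limma adjusted p of up to 0.0807. At 30 min it was -1.31 (limma adjusted p = 0.103), and -1.75 (limma adjusted p = 0.00678) without 30 min replicate a.

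The Hsp70 genes had 1 call at 60 min among 14 tested probe sets from 11 genes. This call, a fall, was 7.14% of them, near the 8.73% called lower over the array. Hspa4 was called on its brightest probe set, which read 607, 660 and 597 at 0 min, 445, 360 and 432 at 30 min, and 375, 215 and 307 at 60 min. The 0 min arrays lay above all later ones, and those of 30 and 60 min overlapped. The log2 fold change was -1.06 (standard error 0.18, limma adjusted p = 0.00932), and -0.85 (limma adjusted p = 0.0112) without 60 min replicate b, and the call was lost without 0 min replicate a or b, with limma adjusted p of up to 0.053. The other 3 tested probe sets of Hspa4 were not called, at -0.58, -0.51 and -0.06, or -0.18, -0.55 and 0.19 without 60 min replicate b. Hspa4l and Hsph1, the other Hsp110 genes, stood at -0.64 (limma adjusted p = 0.159) and -0.24 (95% interval -0.62 to 0.13).

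The cytosolic Hsp70 genes that respond to stress were not called. Hspa1b, an inducible Hsp70, read 710, 748 and 717 at 0 min, 932, 1058 and 980 at 30 min, and 840, 900 and 928 at 60 min. All arrays with PTH lay above the 0 min arrays, with log2 fold changes of 0.44 (standard error 0.10, limma adjusted p = 0.0678) at 30 min and 0.29 (standard error 0.10, limma adjusted p = 0.0728) at 60 min. At 30 min the adjusted p was 0.0224 by limma when 60 min replicate b was left out. Hspa1a, a nearly identical gene whose RNA can bind the same probes, read 203, 227 and 233, then 246, 185 and 358, then 200, 206 and 212, with overlap at both times. Hspa8, the constitutive Hsp70, read 2074, 2144 and 2064 at 0 min and 2269, 2607 and 2417 at 60 min, a log2 fold change of 0.21 (95% interval 0.00 to 0.43) that was 0.05 after cyclic loess. Hspa9, the mitochondrial Hsp70, stood at -0.25 (limma adjusted p = 0.239), and Hspa1l and Hspa2, both known from testis, at 0.18 and -0.05.

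Of the small heat shock proteins Hspb8 rose. It read 594, 632 and 565 at 0 min, 732, 726 and 709 at 30 min, and 793, 831 and 819 at 60 min. The arrays of the 3 times did not overlap, and the rise at 60 min was 1.36-fold, with a log2 fold change of 0.44 (standard error 0.10, limma adjusted p = 0.0197) and 0.43 (limma adjusted p = 0.0305) without 60 min replicate b. The call was lost without any of the 0 min arrays, with limma adjusted p up to 0.0843. Hspb2, a muscle member of the family, read 189, 193 and 171 at 0 min and 227, 297 and 252 at 60 min, a log2 fold change of 0.46 (limma adjusted p = 0.065).

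The Bag co-chaperones had 0 calls among 9 tested probe sets, which came from only 4 genes. Each of the 9 stood above 0 at 60 min, between 0.07 and 0.49 with a median of 0.21, and 8 did so at 30 min. Over the whole array 4212 of 7884 probe sets stood above 0 at 60 min, and the Bag median lay between 0.13 and 0.27 under the 3 other scalings, where 1 probe set was called by limma under the quantile and 1 under the 75th percentile scaling. Bag3, the stress-inducible partner of Hspb8, read 466, 461 and 470 at 0 min, 478, 583 and 582 at 30 min, and 535, 664 and 505 at 60 min. All arrays with PTH lay above those of 0 min, and the log2 fold change at 60 min was 0.27 (95% interval -0.02 to 0.56, limma adjusted p = 0.179). Bag2, which inhibits the ubiquitin ligase Stub1, stood higher at 30 min than at 60 min on both tested probe sets, at 0.40 and 0.50 against 0.21 and 0.21. Its 30 min arrays lay above those of 0 min on both, with limma adjusted p of 0.153 and 0.0826. Between 60 and 30 min the limma adjusted p was 0.626 and 0.54, and on the brighter probe set these arrays overlapped. Bag1 stood at 0.09 (95% interval -0.21 to 0.39), and the 4 probe sets of Bag6, which guards membrane proteins on their way to the ER, between 0.07 and 0.49.

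The chaperonins also had 0 calls, among 14 tested probe sets from 10 genes, with a median of 0.07 at 60 min and 0.00 after cyclic loess. Hspd1, the large mitochondrial ring, read 3272, 2573 and 3196 at 0 min and 2346, 1981 and 2502 at 60 min. These did not overlap, with a log2 fold change of -0.40 (95% interval -0.70 to -0.10, limma adjusted p = 0.0748), whereas its second probe set stood at 0.09. The first was called after quantile normalization (-0.52, limma adjusted p = 0.0365) and after cyclic loess (-0.58, limma adjusted p = 0.0392). Hspe1, the lid of that ring, stood at 0.07 (95% interval -0.13 to 0.27), and at -0.07 after cyclic loess. Of the cytosolic ring Cct5 read 2680, 2660 and 2676 at 0 min and 2996, 3128 and 2933 at 60 min, a log2 fold change of 0.17 (limma adjusted p = 0.151). Cct8 lay lowest at -0.71 (limma adjusted p = 0.0954), and at -0.40 without 60 min replicate b, with 0 min arrays of 587, 523 and 331 that overlapped the later ones. Cct2, Cct4 and Cct7 stood at -0.19, -0.30 and 0.16.

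Hspg2, Hspb11 and Hspbp1, outside the classes above, had 0 calls, and of these Hspg2 and Hspb11 carry the name without the role. Hspg2 is perlecan, a heparan sulphate proteoglycan of basement membranes, and stood at -0.07. Hspb11 is a part of the transport machinery of cilia and stood at -0.51, from 247, 230 and 187 at 0 min to 192, 109 and 166 at 60 min. Hspbp1, a nucleotide exchange factor of Hsp70, stood at 0.18.

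At 30 min of PTH 0 of the 74 member probe sets were called by limma, where 0.482% of the array was called higher and 0.457% lower. An unadjusted p under 0.05 was found for 17 of the 74, or 23%, and for 17.9% of the array. The members' log2 fold changes ran from -1.31 for Hsp90aa1 to 0.51 for Dnajb1, with a median of 0.04 against 0.05 over all tested probe sets. Without 60 min replicate b, which enters only through the common estimate of the spread, 7 were called. These were Dnajb1, Hspa1b and a probe set of Bag2 higher, and Dnajc1, Dnajc13, Hsp90aa1 and Hspa4 lower, while 2.11% of the array was called higher and 4.96% lower. Between 60 and 30 min 0 of 74 were called by limma, against 0.0254% of the array. An unadjusted p under 0.05 was found for 8, or 10.8%, and for 9.07% of the array. The comparisons at 30 and 60 min share the 0 min arrays, so their likeness is not independent.

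Heat shock factors bind repeats of GAA and TTC, and the 2 possible cores GAANNTTC and TTCNNGAA, which can overlap and read the same on both strands, were searched in the promoters. At least 1 of them stood in 25.8% of the 66 member promoters, belonging to 15 of 52 genes, and in 15.1% of all 32851 promoters. Their genes moved in no common direction. Of the 14 with a tested brightest probe set, 6 stood above 0 at 60 min, with a median of -0.14, against -0.07 for the 35 tested genes whose promoter held no core. Of the genes called, Hspb8 held a core 2 bases after its start and Dnajc10 a core 182 bases before it, and the 300 bases at Dnajb1 held none. Among the called genes the promoters of Hsp90aa1 and Dnajc2 were not analysed here, nor were those of Dnajc5, Dnajc11, Cct4, Hspa8, Hspa9 and Hspb2. The cAMP response element TGACGTCA, through which PTH can act, was found in 0 of the 66 member promoters and in 1.79% of all promoters. The runs below show the inducible Hspa1b, the mitochondrial Hspd1 and Dnajc10, which fell, with the cores in capitals.

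Hspa1b, chr17:34959305-34959372, minus strand: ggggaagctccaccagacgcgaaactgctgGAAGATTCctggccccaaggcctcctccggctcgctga
Hspd1, chr1:55088034-55088101, minus strand: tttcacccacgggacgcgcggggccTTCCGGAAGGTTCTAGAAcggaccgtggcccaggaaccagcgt
Dnajc10, chr2:80315254-80315321, plus strand: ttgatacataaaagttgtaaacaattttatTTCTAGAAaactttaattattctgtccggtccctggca

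The run of Hspa1a was the same as that of Hspa1b letter for letter. Hspd1 and Hspe1 start back to back, so that the run of Hspd1, in reverse, also lies before the start of Hspe1.

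Probe sets of the same gene differed in how far they moved. Of 12 genes with more than 1 tested probe set, 9 had all of them on the same side of 0 at 60 min and 3 did not, Cct3, Dnajc8 and Hspd1. Those of Hspa4 ran from -1.06 to -0.06, and without 60 min replicate b lay on both sides of 0, and those of Dnajc3 from -1.16 to -0.51, with 1 probe set of each called. The difference between the highest and the lowest was 0.10 for Dnajc2, where both were called, 0.01 for Bag2 and 0.03 for Bag3.

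**Figure D4:**
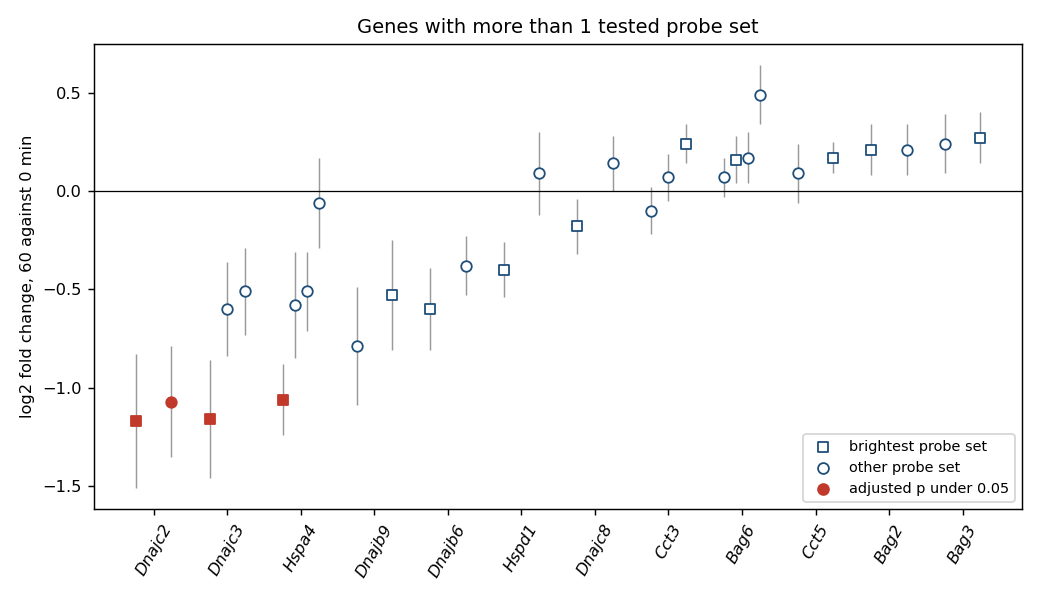
Log2 fold change at 60 against 0 min (y axis) with standard error for each tested probe set of the 12 genes that have more than 1 (x axis). Squares are the brightest probe set of the gene and filled symbols those with a limma adjusted p under 0.05. Both probe sets of Dnajc2 are filled, and 1 each of Dnajc3 and Hspa4.

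Helpers of these chaperones that are not members were taken from a list of 43 genes, of which 35 were on the array and 29 could be tested, each by its brightest probe set. At 60 min 5 were called higher and 3 lower, against 4.35% and 8.73% of the array, and at 30 min 0 were called either way. The median at 60 min was 0.21, and without 60 min replicate b 0.03, against 0.01 over the array. Fkbp4, an immunophilin of the Hsp90 complex with steroid receptors, rose from 744, 743 and 812 at 0 min to 1114, 1274 and 1061 at 60 min, without overlap (log2 fold change 0.57, limma adjusted p = 0.0144). The kinase co-chaperone Cdc37 (0.56), the ubiquitin ligase Stub1 (0.44), the tail-anchor adaptor Sgta (0.34) and the mitochondrial protease Clpp (0.67) were also called higher. The Hsp90 cyclophilin Ppid fell from 232, 223 and 198 to 136, 99.2 and 102, a log2 fold change of -0.89 (limma adjusted p = 0.0159), as did the Hsp90 partner Chordc1 (-1.09) and the prefoldin subunit Vbp1 (-0.85). Co-chaperones of Hsp90 thus lay on both sides while Hsp90aa1 fell. Fkbp4, Ppid and Chordc1 were also called without 60 min replicate b, and Cdc37, Stub1, Sgta, Clpp and Vbp1 were not. Fkbp4 and Ppid lost the call without 0 min replicate a or b, and the other 6 without any of the 0 min arrays. Leaving out 60 min replicate c also ended the calls of Cdc37, Clpp, Stub1 and Sgta. Leaving out 30 min replicate c ended those of Stub1, Sgta and Vbp1. Under cyclic loess 2 of the list were called higher and 3 lower at 60 min. Quantile and 75th percentile scaling gave 5 and 6 higher, each with 3 lower. Of the ER genes on that list Canx, Pdia3, Pdia4 and Pdia6 stood at -0.10, -0.44, -0.09 and -0.19. P4hb and the collagen chaperone Serpinh1 stood at 0.49 and 0.10, and 0 of these genes were called. The regulators of the ER response Xbp1, Atf4 and Ddit3 stood at 0.26, 0.28 and -0.24 and were not called either, though Atf4 was without 60 min replicate b (0.48, limma adjusted p = 0.0184). Of the heat shock factors Hsf2 and Hsf4 were too dim to test, and Hsf1 was not analysed here.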

How the data were processed

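The authors deposited 1 linear intensity per probe set and array, and how they made it is not given in the sources used here. The mean of each array with 2% trimmed off each end was 250.1 or 250.2, so the deposited scaling was kept. Symbols came from the platform annotation, and the 10855 probe sets with 1 symbol were named. The constant 11.8 is the 20th percentile of all intensities and the filter of 44.69 the 40th. Control probe sets (66) were left out.

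The 3 times were compared in 1 model over the 9 arrays, using limma (version 3.58.1, R version 4.3.3, empirical Bayes variances with a trend on intensity, 6 residual and 4.68 prior degrees of freedom), without a replicate block, and adjusted by Benjamini-Hochberg over all tested probe sets. Other constants, filters, scalings and variance models, the replicate letter as a block and leaving out each array were tried. Genes named in full were those called, the highest and lowest of each Dnaj class and a fixed panel. The remaining members were described after their values were seen. The members, lists and tests were chosen with earlier results of these data known. Promoters came from RefSeq, GRCm38.p6. Figures were drawn with matplotlib 3.10.9.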

Additional observations from a re-analysis of the deposited data

How the results depend on the processing

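The number of member probe sets called at 60 against 0 min, 11 as reported, was 6 without a filter, 6 without a variance trend and 17 with the replicate letter as a block, and 0 to 21 when single arrays were left out. At 30 against 0 min the count, 0 as reported, was 2 after quantile normalization, 1 after cyclic loess, 5 in a fit of these times alone and 4 with the replicate block, and 0 to 7 with single arrays left out. Between 60 and 30 min it was 0 under every alternative run. Arrays of the same letter had correlations of their deviations between -0.128 and 0.304, and those of different letters and times between -0.266 and 0.179. The highest, 0.304 and 0.251, joined the 30 and 60 min arrays of replicate a and those of replicate b. The reported fit has no replicate block because the labels do not say that a letter marks a shared culture. Whether the letters pair the samples was not tested. The Dnajb median of -0.29 was -0.10 without a filter and -0.19 after quantile normalization, and -0.39 to -0.22 with single arrays left out. Of 954 values of the 32 named probe sets under the alternatives other than leaving out arrays, 13 lost a call, 17 gained one and 0 called values turned their sign. Of 864 values with single arrays left out, 46 lost a call and 17 gained one. The number of arrays limits the precision. The cause of these changes was not tested.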
